A study of Mus musculus with 15 samples.

Results

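The genes described here encode products that the choroid plexus epithelium secretes or displays at its surface: Ttr, Kl, Folr1, Clic6, Ace, F5, Calml4, Sulf1, Rdh5 and Prlr. They were taken from a named list of 10 genes, and a gene was used where a probe set was paired with its symbol alone. That held for 9 of the 10, out of 22180 genes tested, with 1 probe set for each. Prlr, the prolactin receptor gene, had no such probe set and was not analysed here. Expression was measured on 15 single-channel Affymetrix arrays, 1 per tissue sample, with 5 samples in each of 3 groups, and the series text says that samples came from different mice. Choroid plexus carcinomas carried the genotype Atoh1-Cre; Myc/Myc; p53fl/fl, choroid plexus papillomas carried Atoh1-Cre; Myc/Myc, and normal choroid plexus came from mice with Myc/Myc; p53fl/fl and no Cre. All groups thus carried the Myc/Myc alleles, on the background given as C57Bl/6 and 129 mix. The labels give no ages, and tumours were collected once animals showed signs of disease. Cre was driven by Atoh1 sequence, so recombination was limited to cells with that activity or descent. The carcinomas and papillomas differ in the p53fl/fl alleles as well as in tumour type, and these cannot be told apart. Papillomas also differ from normal tissue in the p53fl/fl alleles, and both tumour types differ from normal tissue in Cre. These differences likewise cannot be told apart from that of tumour against normal tissue.

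The choroid plexus hangs in the brain ventricles, where its epithelium secretes cerebrospinal fluid. Its cells release carrier proteins such as transthyretin into the fluid, move folate and other nutrients from blood to brain, and carry a brush border of microvilli on the side that faces the fluid. Papilloma is the benign tumour of this epithelium and carcinoma the malignant one.

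Values are log2 expression per probe set after the authors' RMA normalization, in which 1 unit is a doubling of signal. Differences were tested with limma across all 22180 genes at an adjusted p of 0.05 (Benjamini-Hochberg). Against normal tissue 18.7% of all genes rose and 19.2% fell in carcinoma, and 17.0% rose and 16.3% fell in papilloma. The counts of marker and pathway genes given below are to be read beside these shares. Arrays had medians of 6.79 to 6.90 over all probe sets and maxima of 14.48 to 14.58. Of 8 epithelial marker genes, 7 were measured (Kcne2, Aqp1, Otx2, Slc4a5, Car12, Cldn2 and Krt18). Their mean level was 12.15 to 12.51 in the carcinomas and 12.13 to 12.43 in the papillomas, against 12.68 to 12.75 in normal tissue. These markers were present in every array, and 3 of the 7 fell in each tumour type. With 1 array left out 2 to 4 fell in carcinoma and 3 to 4 in papilloma, and 6 of the 7 fell in papilloma when only papilloma and normal arrays entered the fit. The 6 genes of multiciliated and ependymal cells all fell in both. Their mean was 6.87 to 8.24 in carcinoma and 6.71 to 6.96 in papilloma, against 10.43 to 10.67 in normal tissue, and the part of these cells in the results was not tested. In whole tissue, fewer cells of a type and less RNA per cell cannot be told apart, and this holds for every fall given here. Papilloma arrays 2 and 4 stood apart by neuronal markers (mean of 6 genes, 10.17 and 9.21, against 7.37 to 7.82 in the other papillomas and 8.82 to 9.36 in normal tissue). In carcinoma this mean was 7.45 to 8.21, and 3 of the 6 genes fell (1 without normal 2 or carcinoma 5). In papilloma 1 of the 6 fell (3 without papilloma 2, and 4 without papillomas 2 and 4). Oligodendrocyte genes fell in 5 of 5 in carcinoma and 3 of 5 in papilloma. Their mean was 7.20 to 7.85 in carcinoma and 7.25 to 8.02 in papilloma, against 8.38 to 8.76 in normal tissue, and the part of neural tissue in the results was not tested. Normal arrays 2 to 5 each had both the female transcript Xist (10.69 to 12.48) and Y-linked transcripts (7.72 to 9.74), and every tumour array had one or the other. The labels do not state whether a normal sample was pooled from several mice.

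Most of these genes were lower in both tumour types, and none was higher (18.7% of all genes were higher in carcinoma and 17.0% in papilloma). In carcinoma 8 of the 9 measured genes fell against normal tissue, where 19.2% of all genes fell. In papilloma 7 of 9 fell, where 16.3% of all genes fell. Ttr missed the test in both tumour types and F5 in papilloma. The median log2 difference of the 9 genes was -0.76 in carcinoma and -0.52 in papilloma, beside -0.02 and 0.01 over all genes. The arrays did not overlap in 8 of 9 genes in each comparison with normal tissue, where 15.2% of all genes lay wholly lower in carcinoma and 15.8% wholly lower in papilloma. F5 was the exception in both. The largest falls were those of Sulf1 in carcinoma (5.85-fold) and Ace in papilloma (5.02-fold). Between the tumour types, Ace was higher in carcinoma (6.24% of all genes were) with no overlap of arrays (4.52% of all genes), and F5, Calml4 and Sulf1 were lower in carcinoma (5.17% of all genes were). Without papillomas 2 and 4, 5 genes fell in papilloma (Kl and Calml4 no longer passed), and 2 were lower in carcinoma than in papilloma (Folr1 and Calml4).

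**Figure D1:**
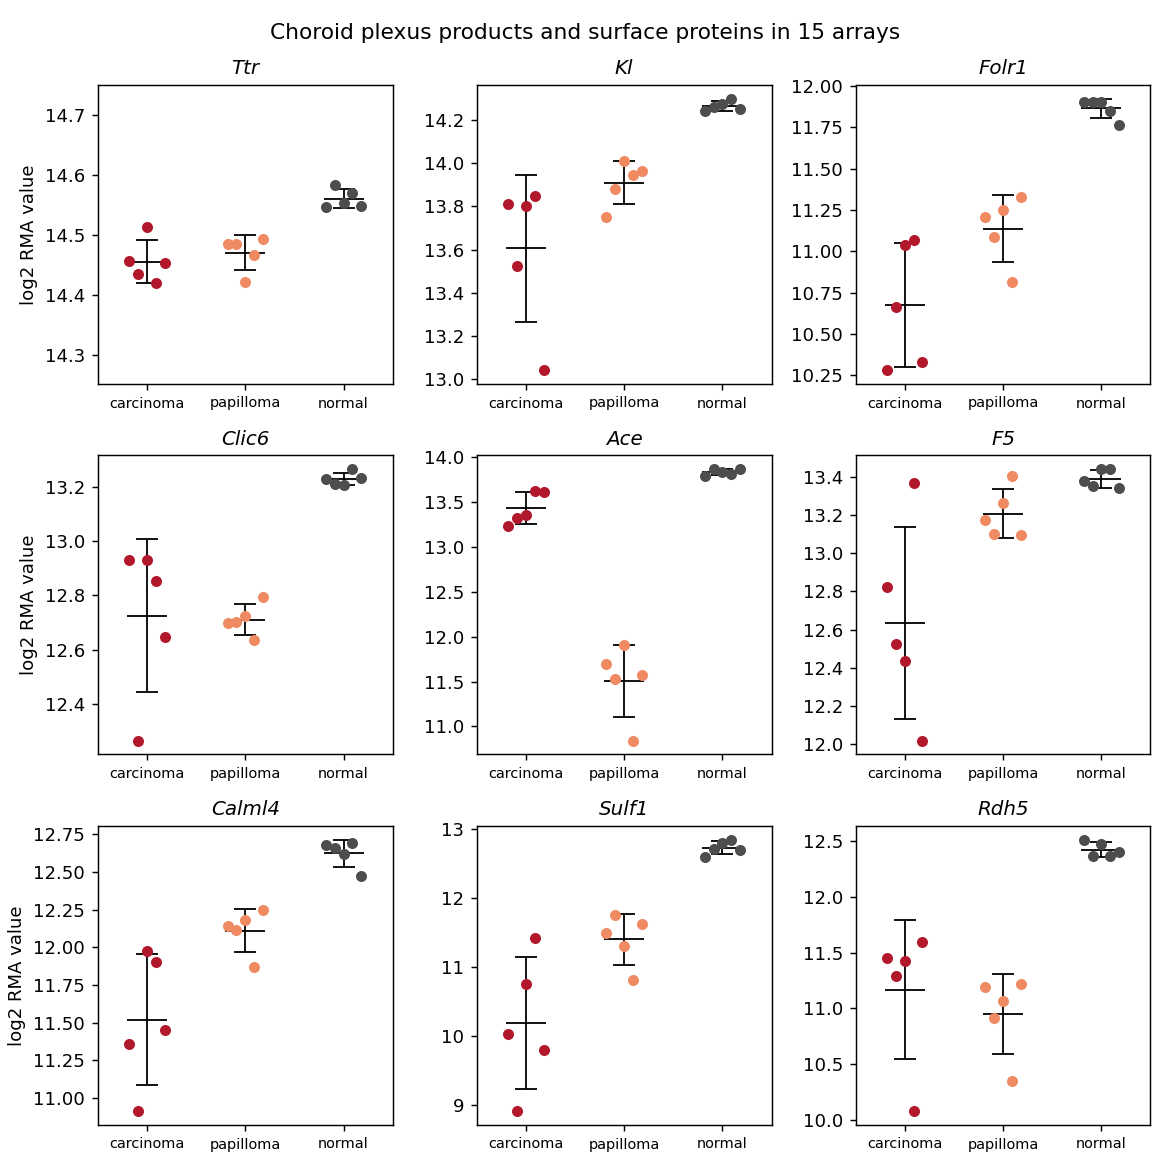
Log2 RMA value of each of the 9 genes in the carcinomas, papillomas and normal samples. Points are arrays 1 to 5 of a group from left to right, and bars give the mean and SD (n = 5). Each panel has its own axis range. Normal values lie close together and above the tumour values in every panel but F5, and Ace is lowest in the papillomas.

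**Figure D2:**
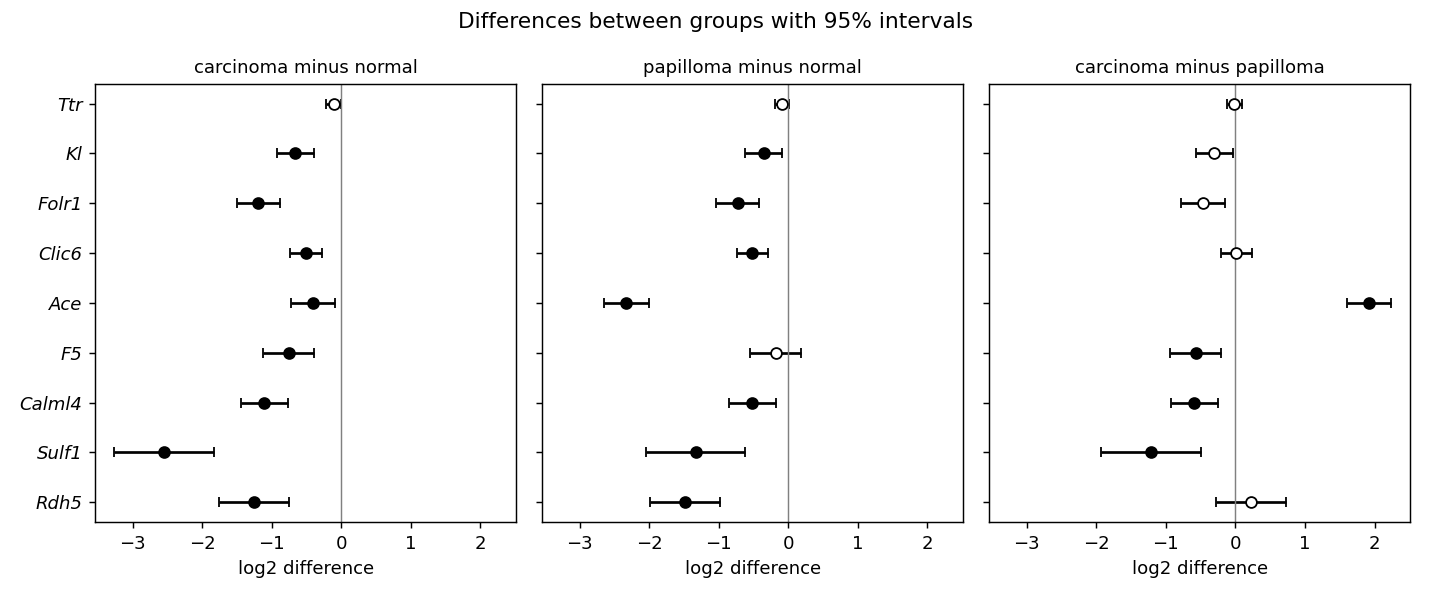
Log2 differences of the 9 genes in the 3 comparisons, with 95% intervals from limma. Filled points passed an adjusted p of 0.05, and open points did not. Ace is the only gene with a difference far above 0 between carcinoma and papilloma.

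Ace encodes angiotensin-converting enzyme, a peptidase anchored in the membrane of the choroid plexus brush border and of endothelium. It had the largest difference between the tumour types among the 9 genes. Ace (probe set 17257444, chromosome 11) measured 13.23, 13.32, 13.36, 13.62 and 13.62 in carcinomas 1 to 5. In papillomas 1 to 5 it measured 11.69, 11.53, 11.91, 10.84 and 11.57, and in normal samples 1 to 5 it measured 13.79, 13.87, 13.84, 13.81 and 13.87. The papilloma values were all below the carcinoma values, which in turn were all below the normal ones. The fall in papilloma was 5.02-fold (log2 difference -2.33, SE 0.15, limma adjusted p = 8.32e-09). Carcinoma exceeded papilloma by 1.92 on the log2 scale (3.79-fold, SE 0.15, adjusted p = 2.29e-06). Carcinoma was below normal tissue by a smaller margin (-0.40, SE 0.15, adjusted p = 0.0444). That last call was lost without any 1 of the normal arrays, without carcinoma 1, 2 or 3, and without papilloma 2 or 5 (adjusted p up to 0.105). Without papillomas 2 and 4, the papilloma fall was -2.11 (adjusted p = 7.54e-09), and the carcinoma difference of -0.40 kept its call (adjusted p = 0.00285).

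Endothelium also makes this enzyme, so the endothelial markers are given beside it. The mean of the 8 measured endothelial genes was 8.92 to 9.38 in carcinoma and 8.66 to 9.05 in papilloma, against 8.33 to 8.83 in normal tissue. Against normal tissue 4 of 8 rose in each tumour type, and Cldn5 fell in papilloma. Leaving out papilloma 5, or papillomas 2 and 4, left 2 that rose in papilloma, and the fall of Cldn5 was lost without any 1 array other than normal 2, carcinoma 2 or 5 or papilloma 2. Their part in the levels of Ace was not tested. Of 7 other measured genes of the renin-angiotensin system, 4 fell in carcinoma (2 without normal 1) and 3 in papilloma, and none rose. Beside these, 19.2% of all genes fell and 18.7% rose in carcinoma, and 16.3% fell and 17.0% rose in papilloma. Anpep, an aminopeptidase that trims angiotensin peptides, was at 7.20 to 8.04 in carcinoma and 7.04 to 7.53 in papilloma, against 9.27 to 9.67 in normal tissue. It fell by 1.77 in carcinoma (SE 0.14, adjusted p = 5.66e-08) on the log2 scale, and its difference in papilloma was -2.13. Atp6ap2, the prorenin receptor and an accessory subunit of the proton pump, also fell (-0.77 in carcinoma and -0.81 in papilloma). None of the 7 passed the test between the tumour types. For Anpep that difference was 0.36 (adjusted p = 0.112) and for Agt, the angiotensinogen gene, -0.28 (adjusted p = 0.445).

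Sequence before the start of transcription was examined for 5 of the 9 genes, in 6 windows of the RefSeq promoter table (GRCm38.p6). The table holds no entry for Folr1, Clic6 or Sulf1. Ttr was left out by choice, so its sequence was not searched. The 250 bases before the start are shown for Ace, Calml4 and Rdh5, the genes with a fall of at least 2-fold that the table holds. For Ace the first of its 2 listed starts is shown. The windows were searched on both strands for the E-box CACGTG, which Myc with Max can bind, and for TAATCC, a core bound by bicoid-type homeodomain factors such as Otx2. Capitals mark a match.
Ace, chr11:105967698-105967947, plus strand: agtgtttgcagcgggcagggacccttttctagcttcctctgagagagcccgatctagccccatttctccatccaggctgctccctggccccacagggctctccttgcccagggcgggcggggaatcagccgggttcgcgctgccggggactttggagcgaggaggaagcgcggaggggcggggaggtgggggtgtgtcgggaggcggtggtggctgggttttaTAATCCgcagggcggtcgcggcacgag
Calml4, chr9:62857854-62858103, plus strand: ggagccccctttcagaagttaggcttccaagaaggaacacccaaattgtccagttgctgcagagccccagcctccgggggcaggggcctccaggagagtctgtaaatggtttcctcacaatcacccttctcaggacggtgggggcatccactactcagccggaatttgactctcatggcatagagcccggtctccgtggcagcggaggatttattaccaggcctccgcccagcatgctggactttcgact
Rdh5, chr10:128919298-128919547, minus strand: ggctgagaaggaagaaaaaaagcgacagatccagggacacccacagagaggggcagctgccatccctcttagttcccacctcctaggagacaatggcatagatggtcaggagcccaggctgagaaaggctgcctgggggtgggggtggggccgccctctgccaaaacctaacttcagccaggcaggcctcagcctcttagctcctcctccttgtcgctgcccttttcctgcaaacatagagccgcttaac
The Ace window holds TAATCC once, with its first base 27 bases before the start. These letters occur in 6.25% of the 32851 windows of this length in the table. No other of the 6 windows, which include those of Kl and F5 and the second of Ace, holds TAATCC, and none holds CACGTG, which 6.02% of all windows do. A match shows the letters alone and not a bound site.

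Ttr encodes transthyretin, the carrier of thyroxine and of retinol-binding protein, and is the classic secretory product of this epithelium. Its transcript stayed near the top of the scale in every sample. Ttr (probe set 17348833, chromosome 18) measured 14.46, 14.43, 14.51, 14.42 and 14.45 in carcinomas 1 to 5 and 14.49, 14.49, 14.42, 14.47 and 14.49 in papillomas 1 to 5. Normal samples 1 to 5 measured 14.55, 14.58, 14.55, 14.57 and 14.55. All tumour values lay below all normal values, and the differences missed the threshold. They were -0.11 in carcinoma (95% interval -0.21 to 0.00124, adjusted p = 0.116) and -0.09 in papilloma (95% interval -0.20 to 0.02, adjusted p = 0.198). Ttr held the highest value of the whole array in all 5 normal samples, and at most 2 probe sets exceeded it in a tumour array. A value so near the ceiling can hide a difference in transcript amount. With a variance trend and robust moderation, limma called both differences (adjusted p = 0.00798 in carcinoma and 0.0226 in papilloma). Quantile normalization shrank them to -0.045 in carcinoma and -0.031 in papilloma, and a common array median to -0.069 and -0.045 (adjusted p = 0.365 to 0.686).

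The genes that handle thyroid hormone and retinoids, the cargo of transthyretin, are given next. Of 15 measured, 3 rose and 6 fell in carcinoma, where 18.7% of all genes rose and 19.2% fell. In papilloma 1 rose (2 without carcinoma 2 or papilloma 5 and under 7 other alternatives) and 4 fell, where 17.0% of all genes rose and 16.3% fell (medians -0.37 and -0.17). Rbp4, the retinol-binding protein that rides on transthyretin in plasma, was at 6.97 to 7.42 in carcinoma and 7.19 to 7.69 in papilloma, against 8.51 to 9.60 in normal tissue. Its differences were -1.72 (SE 0.17, adjusted p = 5.52e-07) and -1.54 (adjusted p = 2.19e-06). Aldh1a2, which makes retinoic acid in meninges and other mesenchyme, fell in both (-1.47 and -1.34). Rdh11, a retinal reductase, rose in both (0.72 and 0.70). Crabp2, a retinoic acid carrier that is also among the fibroblast and meningeal markers, was higher in carcinoma than in normal tissue (2.10) and than in papilloma (2.60, adjusted p = 1.16e-05).

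Rdh5 encodes a retinol dehydrogenase best known for its part in the visual cycle of the retinal pigment epithelium. It fell in both tumour types. Rdh5 (probe set 17246358, chromosome 10) measured 11.46, 11.29, 11.43, 10.08 and 11.60 in carcinomas 1 to 5, 11.19, 10.92, 11.07, 10.34 and 11.22 in papillomas 1 to 5 and 12.52, 12.37, 12.48, 12.37 and 12.40 in normal samples 1 to 5. Every tumour array was below every normal array, and carcinoma 4 was far below the other carcinomas. The differences were -1.26 in carcinoma (2.39-fold lower, SE 0.24, adjusted p = 0.000466) and -1.48 in papilloma (2.79-fold lower, SE 0.24, adjusted p = 0.000126). Carcinoma and papilloma differed by 0.22 (95% interval -0.28 to 0.73, adjusted p = 0.626). Without carcinoma 4 that difference was 0.50 and passed the threshold (adjusted p = 0.0333). It was 0.12 without carcinoma 5, 0.071 without papilloma 4 and 0.011 without papillomas 2 and 4 (adjusted p = 0.832 to 0.986).

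F5 encodes coagulation factor V, the cofactor with which factor Xa turns prothrombin into thrombin. It was lower in carcinoma and did not pass the test in papilloma. F5 (probe set 17218861, chromosome 1) measured 12.82, 12.52, 12.44, 13.37 and 12.02 in carcinomas 1 to 5, 13.17, 13.10, 13.26, 13.40 and 13.10 in papillomas 1 to 5 and 13.38, 13.35, 13.44, 13.44 and 13.34 in normal samples 1 to 5. Carcinoma 4 lay within the range of normal tissue, and the other 4 carcinomas lay below every papilloma and every normal sample. The fall in carcinoma was 1.69-fold (log2 difference -0.76, SE 0.17, adjusted p = 0.00245). Papilloma differed from normal tissue by -0.18 (95% interval -0.56 to 0.19, adjusted p = 0.493). The difference between carcinoma and papilloma (-0.57, SE 0.17, adjusted p = 0.045) passed the threshold narrowly. Its call was lost without any 1 normal or papilloma array and without carcinoma 1, 2, 3 or 5 (-0.62 to -0.42, adjusted p = 0.0522 to 0.101), and it held without carcinoma 4.

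Platelets carry factor V as well, and the mean of 5 platelet genes was 6.98 to 7.36 in carcinoma and 7.01 to 7.36 in papilloma, against 7.36 to 7.56 in normal tissue. Of these, 2 fell in carcinoma (4 with array weights) and 1 in papilloma. Their part in the F5 values was not tested. Of 15 measured partners of factor V, 2 rose and 4 fell in carcinoma, shares near those of all genes (18.7% and 19.2%). In papilloma 2 rose (1 with quantile normalization) and 5 fell (3 without normal 1), beside 17.0% and 16.3% of all genes. F3, the tissue factor that starts coagulation, fell in both (-0.95 and -0.95, adjusted p = 7.12e-05 and 8.13e-05), and so did the thrombin inhibitor gene Serpind1 (-0.84 and -0.87). Serpind1 was dim, with means of 6.15 in carcinoma, 6.12 in papilloma and 6.98 in normal tissue, beside array medians of 6.79 to 6.90. Its tumour and normal arrays overlapped. F8, the cofactor most like factor V, rose by 0.52 in carcinoma and by 1.01 in papilloma. Lman1, a cargo receptor that carries factors V and VIII out of the endoplasmic reticulum, rose by 0.54 in carcinoma (adjusted p = 6.07e-06).

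Kl encodes Klotho, a membrane protein whose shed ectodomain enters the cerebrospinal fluid and which serves as coreceptor for the hormone Fgf23. It fell in both tumour types. Kl (probe set 17445238, chromosome 5) measured 13.81, 13.53, 13.80, 13.85 and 13.04 in carcinomas 1 to 5, 13.75, 13.88, 14.01, 13.94 and 13.96 in papillomas 1 to 5 and 14.24, 14.26, 14.28, 14.30 and 14.25 in normal samples 1 to 5. Carcinoma 5 was the lowest of all arrays, and normal samples lay above all tumours. The differences were -0.66 in carcinoma (1.58-fold lower, SE 0.12, adjusted p = 0.000469) and -0.36 in papilloma (1.28-fold lower, SE 0.12, adjusted p = 0.0371). The papilloma call was lost without any 1 normal array, without papilloma 1, 2, 4 or 5, and without papillomas 2 and 4 together (adjusted p = 0.0527 to 0.0999). It was also lost with quantile normalization (-0.29, adjusted p = 0.0875), a common array median (-0.31, adjusted p = 0.0724) and all probe sets in the fit (adjusted p = 0.0529). Carcinoma and papilloma differed by -0.30 (95% interval -0.57 to -0.04, adjusted p = 0.141), and by -0.16 without carcinoma 5 (adjusted p = 0.215). In normal tissue Kl lay above 99.97% of the probe sets of each array, close to the ceiling of the scale.

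Of 10 measured partners and sheddases of Klotho, 3 rose and 2 fell in each comparison with normal tissue. With 1 array left out, the number that fell in carcinoma was 4 without carcinoma 5 and 1 without carcinoma 1, 2 or 3, papilloma 5 or normal 1, 3, 4 or 5. It was also 1 under 5 other alternatives. Without papillomas 2 and 4, 1 rose and 1 fell in papilloma. For all genes the main fit gave 18.7% higher and 19.2% lower in carcinoma, and 17.0% higher and 16.3% lower in papilloma. Adam10, a protease that releases the Klotho ectodomain, was at 10.94 to 11.56 in carcinoma and 10.94 to 11.05 in papilloma, against 10.62 to 10.71 in normal tissue. It rose by 0.46 in carcinoma (SE 0.10, adjusted p = 0.00123). Fgfr1, the receptor that pairs with Klotho to bind Fgf23, fell by 0.75 in carcinoma (adjusted p = 0.000728), and Fgfr3 fell by 1.10 in papilloma (adjusted p = 0.00124) on the log2 scale. Fgfr2 rose by 0.55 in carcinoma (adjusted p = 0.0209) and by 0.56 in papilloma (adjusted p = 0.0211). The carcinoma call of Fgfr2 was lost without normal 5 or carcinoma 1, 2 or 3. Its papilloma call was lost without normal 5 or papilloma 4, and without papillomas 2 and 4 together.

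Folr1 encodes folate receptor alpha, which takes folate from blood into the epithelium for release into the cerebrospinal fluid. It fell in both tumour types, and the papilloma mean lay between those of carcinoma and normal tissue. Folr1 (probe set 17493956, chromosome 7) measured 10.28, 10.67, 11.04, 11.07 and 10.33 in carcinomas 1 to 5, 11.21, 11.09, 11.25, 10.81 and 11.33 in papillomas 1 to 5 and 11.90, 11.90, 11.90, 11.85 and 11.77 in normal samples 1 to 5. Tumour and normal values did not overlap, and carcinomas 3 and 4 lay within the papilloma range. The difference was -1.19 in carcinoma (2.28-fold lower, SE 0.15, adjusted p = 7.7e-06). In papilloma it was -0.73 (1.66-fold lower, SE 0.15, adjusted p = 0.001). Carcinoma and papilloma differed by -0.46 (95% interval -0.78 to -0.15) and missed the threshold (adjusted p = 0.0547). That difference passed without carcinoma 3 or 4 or papilloma 4 (-0.56 to -0.54, adjusted p = 0.0165 to 0.0314).

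A pair of folate carriers moved in opposite directions. Slc46a1, the proton-coupled folate transporter that works with the receptor, fell by 0.57 in carcinoma (SE 0.08, adjusted p = 3.11e-05) and showed a difference of -0.37 in papilloma (adjusted p = 0.00196) on the log2 scale. Slc19a1, the reduced folate carrier, rose by 0.54 in carcinoma (adjusted p = 2.5e-05) and by 0.52 in papilloma (adjusted p = 4.32e-05). Neither gene's tumour arrays overlapped the normal ones. Lrp2, the endocytic receptor megalin, rose by 0.98 in carcinoma, and carcinoma exceeded papilloma by 0.94 (adjusted p = 0.000119). In all, 2 of the 5 measured genes of folate uptake rose and 1 fell in carcinoma, and 1 rose and 1 fell in papilloma. Leaving out carcinoma 2 gave 3 that fell in each tumour type, and papilloma 5 gave 2 in each. Without papilloma 1 or 4, or 2 and 4 together, 2 fell in carcinoma. Fitting only the groups compared, or using array weights, gave 2 in carcinoma and 3 in papilloma. Quantile normalization, leaving out dim genes and another alternative also gave 2 in carcinoma. In the main fit 18.7% of all genes rose and 19.2% fell in carcinoma, and 17.0% rose and 16.3% fell in papilloma.

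Sulf1 encodes an extracellular sulfatase that removes sulfate groups from heparan sulfate at the cell surface. It had the largest fall of these genes in carcinoma. Sulf1 (probe set 17211198, chromosome 1) measured 10.03, 8.91, 10.76, 11.43 and 9.79 in carcinomas 1 to 5, 11.50, 11.75, 11.31, 10.82 and 11.63 in papillomas 1 to 5 and 12.60, 12.72, 12.79, 12.85 and 12.70 in normal samples 1 to 5. The carcinomas spread widely, from carcinoma 2 at the bottom to carcinoma 4, which lay within the papilloma range. The fall was 5.85-fold in carcinoma (log2 difference -2.55, SE 0.34, adjusted p = 1.53e-05) and 2.52-fold in papilloma (-1.33, SE 0.34, adjusted p = 0.00544). Carcinoma was below papilloma by 2.32-fold (-1.22, SE 0.34, adjusted p = 0.0285). That call was lost without carcinoma 1 or 5 or papilloma 1, 2, 3 or 5 (-1.24 to -1.12, adjusted p = 0.0518 to 0.0665). Stromal cells can also make Sulf1. The mean of 8 fibroblast and meningeal genes was 8.32 to 8.80 in carcinoma and 7.82 to 8.30 in papilloma, against 9.37 to 9.53 in normal tissue. Of these, 4 fell and 2 rose in carcinoma, and 5 fell and 1 rose in papilloma. Their part in the Sulf1 values was not tested.

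Sulf2, the other extracellular heparan sulfatase, moved the opposite way. Sulf2 was at 10.95 to 11.91 in carcinoma and 11.77 to 12.16 in papilloma, against 8.92 to 9.23 in normal tissue. It rose by 2.45 in carcinoma (SE 0.14, adjusted p = 2.22e-09) and by 2.89 in papilloma (SE 0.14, adjusted p = 3.7e-10). Of 18 measured genes of heparan sulfate synthesis and editing, Sulf2 among them, 10 rose and 4 fell in carcinoma, and 5 rose and 3 fell in papilloma (medians 0.34 and 0.10). The number that rose in papilloma was 3 without normal 1, 2 or 4 or papilloma 1 or 3. Among all genes, 18.7% rose and 19.2% fell in carcinoma, and 17.0% rose and 16.3% fell in papilloma. Ext1, a polymerase that lengthens the heparan sulfate chain, rose in papilloma by 1.72 (adjusted p = 1.25e-07). The carcinoma mean of Ext1 was 9.61, against 8.15 in normal tissue. Hs3st1, which adds the sulfate that antithrombin binds, fell in both (-2.22 and -2.27), as did the 6-O-sulfotransferase Hs6st2 (-1.17 and -1.76). Gpc3, a glypican that carries such chains, was at 8.36 to 12.10 in carcinoma and 6.42 to 6.78 in papilloma, against 8.07 to 8.25 in normal tissue. Carcinoma exceeded papilloma by 3.56 (SE 0.54, adjusted p = 0.00058).

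**Figure D3:**
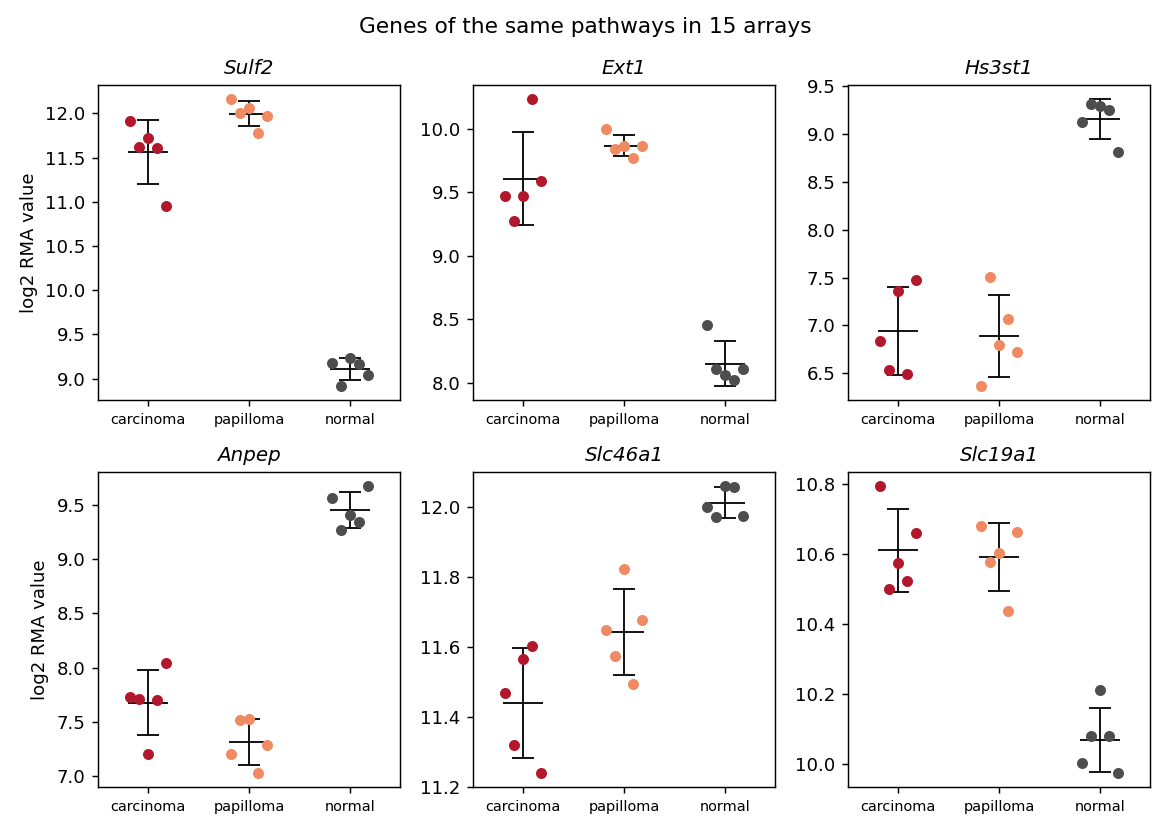
Log2 RMA value of 6 genes of the same pathways in the carcinomas, papillomas and normal samples. Points are arrays 1 to 5 of a group from left to right, and bars give the mean and SD (n = 5). Sulf2, Ext1 and Slc19a1 are higher in every tumour array than in any normal one, and Hs3st1, Anpep and Slc46a1 are lower.

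Calml4 encodes a calmodulin-like protein known from mouse and human intestine as a light chain of Myo7b in the complex that links the tips of microvilli. It fell in both tumour types and was lower in carcinoma than in papilloma. Calml4 (probe set 17518238, chromosome 9) measured 11.36, 10.91, 11.98, 11.90 and 11.45 in carcinomas 1 to 5, 12.14, 12.11, 12.18, 11.87 and 12.25 in papillomas 1 to 5 and 12.68, 12.66, 12.62, 12.69 and 12.47 in normal samples 1 to 5. All tumours were below all normal samples, and carcinomas 3 and 4 lay within the papilloma range. The difference was -1.11 in carcinoma (2.15-fold lower, SE 0.16, adjusted p = 3.38e-05) and -0.52 in papilloma (1.43-fold lower, SE 0.16, adjusted p = 0.0183). Carcinoma differed from papilloma by -0.59 (SE 0.16, adjusted p = 0.0238). This call was lost without carcinoma 1 or papilloma 3 or 5 (adjusted p = 0.0551 to 0.0579). The call in papilloma was lost without papilloma 4 (-0.46, adjusted p = 0.0506) and without papillomas 2 and 4 (-0.44, adjusted p = 0.0985).

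The other genes of the microvillar complex and brush border mostly did not pass the test. Of 8 measured (Cdhr2, Cdhr5, Ush1c, Myo7b, Anks4b, Vil1, Espn and Ezr), 1 rose and 0 fell in carcinoma, and 0 rose and 1 fell in papilloma. Without carcinoma 1, 3 or 4 or papilloma 3 or 5, 2 rose in carcinoma, and without carcinoma 4 also 1 fell. Array weights, only the groups compared, quantile normalization, a common array median, or leaving out dim genes also gave 2 that rose. Over all genes 18.7% rose and 19.2% fell in carcinoma, and 17.0% rose and 16.3% fell in papilloma. Mean levels in carcinoma and normal tissue were 5.10 and 5.21 for Cdhr2, 5.93 and 5.98 for Vil1 and 6.32 and 6.29 for Anks4b. These lay below the array medians (6.79 to 6.90), and Myo7b lay near them (6.87 and 6.97). Levels so low can hide a fall. Cdhr5, a protocadherin of microvillar tips, was the gene that rose, by 1.05 (SE 0.15, adjusted p = 4.53e-05), and carcinoma exceeded papilloma by 0.72 (adjusted p = 0.00662). Ezr, the linker of membrane and actin, fell by 0.31 on the log2 scale in papilloma (adjusted p = 0.0323). That call was lost without papilloma 2, 3, 4 or 5 or normal 1, 2, 4 or 5, and without papillomas 2 and 4 together (adjusted p = 0.0512 to 0.0892). It was also lost with a common array median (adjusted p = 0.0696).

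Clic6 encodes a member of the chloride intracellular channel family that is abundant in this epithelium. It fell in both tumour types. Clic6 (probe set 17327236, chromosome 16) measured 12.93, 12.26, 12.93, 12.85 and 12.64 in carcinomas 1 to 5, 12.70, 12.70, 12.73, 12.63 and 12.79 in papillomas 1 to 5 and 13.23, 13.21, 13.21, 13.27 and 13.23 in normal samples 1 to 5. Every tumour was below every normal sample, and carcinoma 2 was the lowest. The differences were -0.51 in carcinoma (1.42-fold lower, SE 0.11, adjusted p = 0.00105) and -0.52 in papilloma (1.43-fold lower, SE 0.11, adjusted p = 0.000993). Carcinoma and papilloma differed by 0.01 (95% interval -0.21 to 0.24, adjusted p = 0.956). Of 4 other genes of the family, Clic3 fell in both tumour types (-1.47 in carcinoma and -1.51 in papilloma, adjusted p = 8.91e-07 and 8.07e-07). Clic4 rose in carcinoma (0.54), where it exceeded papilloma by 0.90 (adjusted p = 0.000623). Clic1 fell in papilloma (-0.48).

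**Figure D4:**
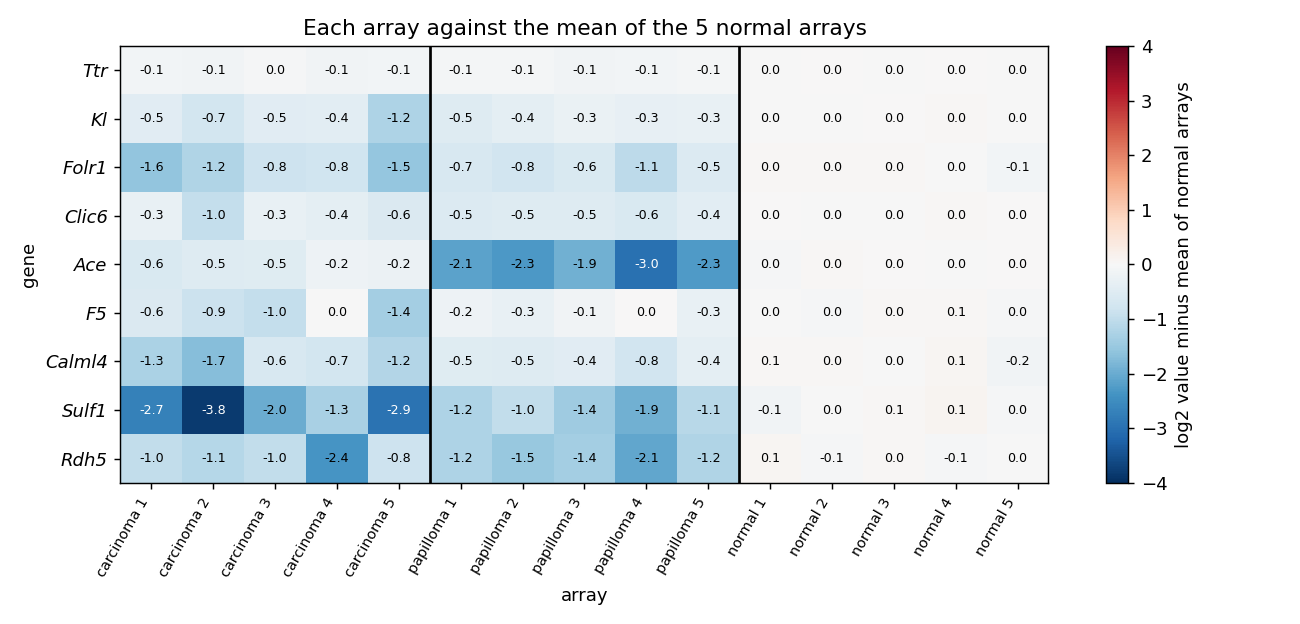
Log2 value of each of the 9 genes in each of the 15 arrays minus the mean of the 5 normal arrays, with blue below and red above that mean and the difference printed in each cell. The papilloma columns are deepest for Ace, and carcinoma 2 is deepest for Sulf1.

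The order of the tumour arrays differed from gene to gene. Papilloma 4 was the lowest papilloma for 6 of the 9 genes (Folr1, Clic6, Ace, Calml4, Sulf1 and Rdh5) and the highest for F5. That array also carried the neuronal markers described above, and their part in its low values was not tested. Papilloma 2, with the higher neuronal level, was the lowest for 0 of the 9. Among the carcinomas, number 4 was the highest for Kl, Folr1, Ace, F5 and Sulf1 and the lowest for Rdh5 and Ttr. Carcinoma 2 was the lowest for Clic6, Calml4 and Sulf1, and carcinoma 5 for Kl and F5. In normal tissue the SD was 0.02 to 0.09 for each of the 9 genes, against 0.04 to 0.96 in carcinoma and 0.03 to 0.40 in papilloma. Normal arrays 2 to 5 carried both Xist and Y-linked transcripts, and the labels do not state whether they were pooled. The part of any pooling in the normal SD, and in the lack of overlap with tumour arrays, was not tested.

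Prlr itself had no measurement, but genes around it did. Of 9 measured genes of prolactin signalling, 5 fell in carcinoma and 3 in papilloma, and none rose (medians -0.50 and -0.29). The papilloma count was 0 without papillomas 2 and 4 and 6 when only papilloma and normal arrays entered the fit. By comparison, 19.2% of all genes fell and 18.7% rose in carcinoma, and 16.3% fell and 17.0% rose in papilloma. Prl, the hormone gene, ranged over 5.34 to 5.45 in carcinoma and 5.32 to 7.74 in papilloma, against 6.48 to 11.57 in normal tissue. Prl is a product of the pituitary, and of 5 measured pituitary genes, Prl among them, 4 fell in each tumour type (2 in papilloma without papillomas 2 and 4). The papilloma call of Prl was lost without papillomas 2 and 4 (-2.52, adjusted p = 0.0579). The mean of the 5 was 5.95 to 6.13 in carcinoma and 5.88 to 6.69 in papilloma, against 7.14 to 8.21 in normal tissue. Pituitary tissue taken with the normal samples and prolactin made in the choroid plexus cannot be told apart here. Socs2, an inhibitor induced by prolactin and growth hormone receptors, fell by 1.65 in carcinoma on the log2 scale (SE 0.46, adjusted p = 0.00991). Its arrays overlapped, at 7.22 to 10.26 in carcinoma and 9.93 to 10.37 in normal tissue.

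Most of the other listed secreted proteins of the choroid plexus fell as well. Of 13 measured, 9 fell and 1 rose in carcinoma, and 7 fell and 0 rose in papilloma (medians -0.48 and -0.38). Shares over all genes were 19.2% lower and 18.7% higher in carcinoma, and 16.3% lower and 17.0% higher in papilloma. Igf2, the insulin-like growth factor, fell by 1.61 in carcinoma (adjusted p = 0.00428), and Gas6, a ligand of TAM receptors, fell by 1.58 (adjusted p = 1.6e-05). In papilloma the ferroxidase gene Cp fell by 2.11 (adjusted p = 1.18e-06) and Igfbp2 fell by 0.79 (adjusted p = 0.000495). The carcinoma means of Cp and Igfbp2, 8.71 and 11.96, were also below those of normal tissue (9.61 and 13.08). Likewise the papilloma mean of Gas6 was 12.72, against 13.42 in normal tissue. The papilloma mean of Igf2 was 11.97, against 12.21 in normal tissue, a gap smaller than the SE of its group differences (0.40). Cp, like Ace, was higher in carcinoma than in papilloma (1.21, SE 0.21, adjusted p = 0.00178). Ecrg4, a secreted peptide precursor of this epithelium, was lower in carcinoma than in papilloma (-1.04, SE 0.18, adjusted p = 0.00128). Vegfa, the angiogenic growth factor, was the product that rose in carcinoma, by 0.81 (adjusted p = 0.00188).

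For each of the 9 genes, the gene with the most similar values was found by Pearson's r over the 15 arrays, with predicted genes, clone names, small RNAs and olfactory receptors left out. Calml4 was the gene most like Sulf1 (r = 0.98). Fxyd1 was the gene most like Calml4, Fads1 most like Kl, Trpt1 most like Folr1 and Cep126 most like Clic6 (r = 0.98 for each). Slc38a3 was the gene most like Ace (r = 0.97), Fbxo30 most like Rdh5 (r = 0.97), Bex3 most like F5 (r = 0.96) and Gk5 most like Ttr (r = 0.94). These values are a description, since the 15 arrays fall into 3 groups and genes that differ between groups in the same way reach a high r.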

How the data were processed

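The deposited values are log2 signals per probe set, made by the authors with RMA in Affymetrix Expression Console, per the submitters' processing notes. They were used as deposited. Of 41345 probe sets, 23521 were paired with 1 symbol in the platform annotation, 1814 with several and 16010 with none, and 23328 of the first were updated by Entrez identifier to RefSeq (GRCm38.p6). The probe set with the highest mean stood for each of 22180 genes. limma 3.58.1 in R 4.3.3 fitted 1 mean per group over all 15 arrays (12 residual degrees of freedom), with two-sided tests and Benjamini-Hochberg adjustment over all genes. The fit was tested on simulated data. The genes, the pathway and marker lists and the settings were chosen with earlier results of these data known. From each pathway list, up to 2 genes with the largest rise and up to 2 with the largest fall among those called were eligible to be named in each comparison, or up to 2 with the smallest p where none was called. The number of arrays limits the precision. Alternatives were other normalizations, moderation, weights, gene filters, probe set choices, a block on array number, fits of the groups compared, and arrays left out.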

Additional observations from a re-analysis of the deposited data

Results flagged for a closer look

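Carcinoma 4 stood far from the other carcinomas for Rdh5, at 10.08 against 11.29 in the nearest of them. The gap was 0.798 of the range of the 5 carcinomas, above the critical value of 0.71 (Dixon's test at 95%). It was the only case among 27 sets of 5 arrays. Chance gives about 1 in 20, so 1 case in 27 is no more than chance alone gives.

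The tumour types differed, by limma's test of carcinoma minus papilloma, in 4 of the 9 genes. Over all genes 6.24% were higher in carcinoma than in papilloma and 5.17% were lower. The log2 difference was 1.92 for Ace, -0.57 for F5, -0.59 for Calml4 and -1.22 for Sulf1. The calls of F5, Calml4 and Sulf1 depended on single arrays, and that of Ace did not in the 26 alternatives run.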

How the results depend on the processing

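Over the 9 genes and 3 comparisons, 26 alternatives gave 702 values. Of these, 628 kept the direction and the side of the threshold, 58 lost a call, 11 gained one and 5 changed sign. The papilloma fall of Ace (-2.43 to -2.11) and its excess in carcinoma over papilloma (1.71 to 2.02) held throughout. Of the 9 genes, 3 were called lower in carcinoma than in papilloma in the main fit, 0 when only these groups entered the fit, and 0 to 4 with 1 array left out. The number called higher was 1, or 1 to 2 with 1 array left out. Over all genes, the 1147 lower and 1383 higher calls between the tumour types became 540 and 789 with only these groups, and 740 and 847 without papillomas 2 and 4. Clic6 in carcinoma minus papilloma, near 0 in the main fit, was -0.015 without papillomas 2 and 4 and ran between -0.038 and 0.13 with 1 array left out. The cause was not tested. Same-numbered arrays did not deviate together (15 pairs, r from -0.10 to 0.14, against -0.15 to 0.17 in 60 other pairs), so the numbers were not taken as pairs. With the replicate block, Ace in carcinoma against normal tissue (-0.40, adjusted p = 0.0673) and Sulf1 between tumour types (-1.22, adjusted p = 0.0555) lost their calls. The number of arrays and the ceiling of the signal scale, which Ttr touches, limit what these data can show.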
